A study of Mus musculus with 6 samples.

Results

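Endothelial cells line the blood vessels and the chambers of the heart, where the inner lining is called the endocardium. The 40 genes described here were chosen by name as genes of that lining: adhesion proteins of the cell junctions, receptors for vascular growth factors, transcription factors that set endothelial fate, and products of capillary, arterial and endocardial cells. All 40 were found among the 56748 genes of the deposited table, each in 1 row. Their levels were compared between hearts of newborn mice with and without a cardiac knockout of Kdm5b, a demethylase of lysine 4 of histone H3, in a series on cell cycle genes of heart muscle cells.

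The 6 libraries were made from whole hearts at postnatal day 1. The control group, FF, has 3 libraries titled Flox with the genotype FF. The series' design calls these mice control Kdm5b FF, and floxed alleles are inferred from the title. The cKO group has 3 libraries with the genotype kdm5b Cko, described as a cardiac specific knockout. The labels name neither the promoter that drives the recombinase nor the strain, nor do they say whether each library came from its own animal, so p-values measure the spread between these libraries, which may be technical. The knockout is labelled as cardiac, and the genes described here belong mainly to other cells of the heart than its muscle cells.

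Reads per library lay between 15658893 and 20339926. The level of Kdm5b was 3.19, 3.25 and 3.92 FPKM in FF and 2.80, 3.03 and 2.75 FPKM in cKO hearts, a coarse check of the labels because the value covers the whole gene and all cell types. FPKM scales the fragments of a gene by its length and by the library's size, so levels of different genes can be set roughly side by side. It does not scale for base composition, to which the libraries related differently, as given below. FF replicate 3 stood apart. Its correlation across genes with the other libraries was at most 0.909, and 14 thymocyte and T cell markers summed to 346 FPKM in it against 1.38 to 2.33 FPKM in the other libraries. Counts and genes past the threshold are therefore given with it and without it, and the second comparison rests on 2 FF libraries against 3 cKO libraries.

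Endothelial cells are held together by junctions built from VE-cadherin and claudin-5, and they respond to vascular endothelial growth factor, angiopoietins, Notch ligands, bone morphogenetic proteins and blood flow through dedicated receptors. Transcription factors of the ETS and SOX families switch on many of these genes. In the heart, capillary cells also pass lipids to the muscle, and the endocardium faces the blood of the chambers.

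Pan-endothelial genes were expressed in every library. Of the 40 members 0 passed the test with all 6 libraries, and 10 passed without FF replicate 3. Summed over 8 pan-endothelial genes (Pecam1, Cdh5, Tie1, Tek, Kdr, Cldn5, Esam and Egfl7), the level was 354, 359 and 477 FPKM in the FF libraries and 286, 347 and 309 FPKM in the cKO libraries. FF replicate 3 had the highest sum, and each cKO library lay below each FF library, the closest at 347 against 354 FPKM. This sum includes Cldn5, the member with the largest decrease, at 42.2 to 58.4 FPKM in FF and 22.4 to 27.3 FPKM in cKO libraries. Taken alone, Cldn5, Egfl7, Kdr and Tek did not overlap between groups, whereas Pecam1, Cdh5, Tie1 and Esam did. Of all genes tested, 28.0% did not overlap. With Cldn5 taken out, the sum of cKO replicate 2 lies above those of FF replicates 1 and 2. The separation of the sums therefore depends on Cldn5 and is not shared by all genes of the sum. Over all 40 members the sums overlapped, at 876, 860 and 1153 FPKM in FF and 745, 864 and 794 FPKM in cKO libraries. All 40 members passed the filter of a mean of at least 1 FPKM. In whole hearts, fewer cells of a type and less RNA per cell cannot be told apart.

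With all 6 libraries, 0 of the 40 members passed an adjusted p of 0.05 in limma with Benjamini-Hochberg adjustment over 12678 genes, where 0.166% of all genes did. At an unadjusted p under 0.05 there were 9 members. The groups did not overlap at 13 members, 11 lower and 2 higher in cKO hearts, or 32.5%, against 28.0% of all genes tested. The median log2 difference over the members, cKO minus FF on log2(FPKM + 1), was -0.11, against 0.01 over all genes.

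Without FF replicate 3, 10 members passed, 6 lower and 4 higher in cKO hearts, or 25.0% of the members against 13.6% of 12631 genes tested. The lower genes were Cldn5, Gpihbp1, S1pr1, Lmo2, Egfl7 and Ecscr, and the higher genes Car4, Plvap, Sox18 and Eng. Their adjusted p lay between 0.0149 and 0.0399. The groups did not overlap at 23 members, or 57.5%, against 52.1% of all genes. The median over the members was -0.06, against -0.0093 over all genes. All 6 lower genes were also lower in cKO hearts than in FF replicate 3, whereas FF replicate 3 lay within or above the cKO range for the 4 higher genes. The calls rest on both remaining FF libraries, since a fit without either leaves a lone FF library that is assumed to vary like the others. On leaving out any further library, the log2 difference ran from -1.22 to -0.76 for Cldn5, from -0.63 to -0.33 for Egfl7 and from 0.43 to 0.79 for Plvap. The count was 6 without cKO replicate 2 and 3 without cKO replicate 3. It was 0 when genes below 1 FPKM were tested too, where 58 of 29067 genes passed. Smaller fits and more tests leave less power for every gene, so these counts are no result about the members.

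**Figure D1:**
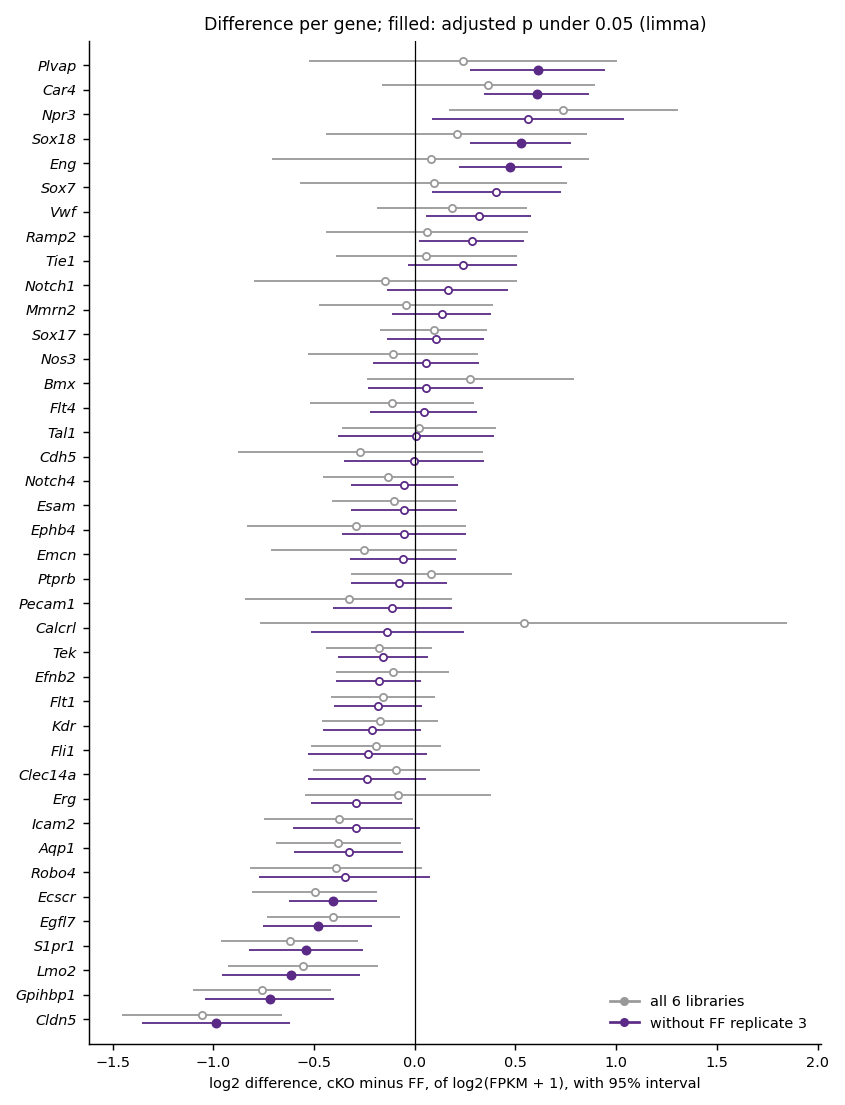
Difference per gene between cKO and FF hearts on the log2(FPKM + 1) scale, with 95% intervals, for all 6 libraries (grey) and without FF replicate 3 (purple). Filled points passed an adjusted p of 0.05 in limma. No grey point is filled, and the filled purple points are the 6 genes at the bottom and 4 of the genes at the top.

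Junction and surface proteins held the largest decrease among the members. Cldn5 (ENSMUSG00000041378, chromosome 16, 18595597 to 18597012, plus strand) encodes claudin-5, the tight junction protein of endothelium. Gene coordinates are given as deposited and are not those of GRCm38. It stood at 42.2, 58.4 and 57.3 FPKM in FF libraries and at 22.4, 27.3 and 24.2 FPKM in cKO libraries. The groups did not overlap, and the lowest FF library lay far above the highest cKO library. The means were 52.6 ± 9.05 FPKM in FF and 24.6 ± 2.47 FPKM in cKO (SD, n = 3 each). The log2 difference of -1.06 (SE 0.17, limma adjusted p = 0.0659) just missed the threshold, and without FF replicate 3 the gene fell by 51.1%, at -0.99 (SE 0.16, limma adjusted p = 0.0149).

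VE-cadherin, encoded by Cdh5, is the adhesion protein of the same junctions and was the most abundant member, with a mean of 109 FPKM over the 6 libraries. It stood at 103, 91.2 and 170 FPKM in FF and at 83.2, 113 and 95.8 FPKM in cKO libraries. The groups overlapped, and FF replicate 3 was above all others. The log2 difference was -0.27 (95% interval -0.88 to 0.34) with 6 libraries and -0.0033 (95% interval -0.35 to 0.34) without FF replicate 3. Relative to Cdh5 in the same library, Cldn5 was at 41.0%, 64.1% and 33.7% in FF and at 26.9%, 24.1% and 25.3% in cKO hearts, without overlap. Pecam1, the adhesion molecule CD31, was at 51.1, 50.3 and 80.3 FPKM in FF and at 42.2, 54.4 and 44.8 FPKM in cKO libraries, again overlapping and highest in FF replicate 3.

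Egfl7 and Ecscr fell without FF replicate 3. Egfl7 (ENSMUSG00000026921, chromosome 2, 26470026 to 26483132, plus strand) encodes a secreted protein of the vessel wall and hosts the microRNA gene Mir126a. It was at 33.5, 41.4 and 31.6 FPKM in FF and 27.7, 26.0 and 25.5 FPKM in cKO libraries. Its groups did not overlap, with a log2 difference of -0.41 (limma adjusted p = 0.207) and, without FF replicate 3, of -0.48 (SE 0.11, limma adjusted p = 0.0399). It overlaps Agpat2 on the other strand, and no overlapping gene had a mean above 7.06 FPKM. Ecscr (ENSMUSG00000073599, chromosome 18, 35846139 to 35855409, minus strand), an endothelial surface protein of cell migration, was at 18.8, 19.0 and 23.1 FPKM in FF and 14.3, 14.8 and 13.1 FPKM in cKO libraries. The groups were again apart, and the log2 difference was -0.50 with 6 libraries (limma adjusted p = 0.134) and -0.40 (SE 0.09, limma adjusted p = 0.0367) without FF replicate 3.

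The other 6 junction and surface genes did not pass in either comparison. Icam2, an adhesion molecule for leukocytes, did not overlap between groups, at 22.7 to 29.4 FPKM in FF and 16.9 to 21.6 FPKM in cKO. Esam, a junction molecule, was at 28.1 to 32.0 FPKM in FF and 25.2 to 31.0 FPKM in cKO. Robo4, a guidance receptor of vessels, Emcn, a sialomucin of veins and capillaries, Clec14a, a lectin of sprouting cells, and its matrix ligand Mmrn2 overlapped between groups, with log2 differences of -0.39, -0.25, -0.09 and -0.05.

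**Figure D2:**
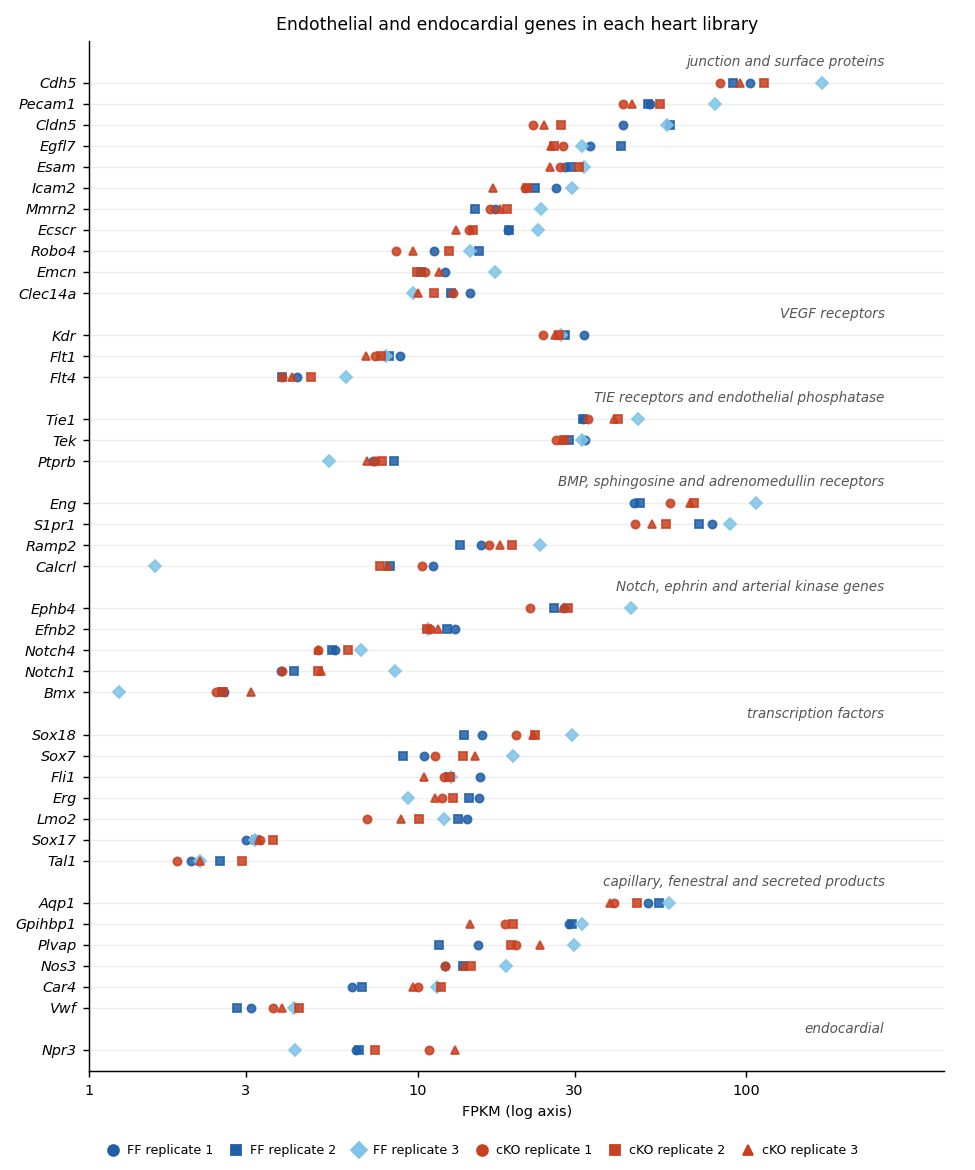
Level of each of the 40 genes in each of the 6 libraries, in FPKM on a log axis, ordered by role and by mean level. Blue symbols are FF libraries (FF replicate 3 in light blue) and red symbols cKO libraries. FF replicate 3 lies outside the other libraries at many genes. The red symbols lie left of all blue ones at 11 genes: Aqp1, Cldn5, Ecscr, Egfl7, Flt1, Gpihbp1, Icam2, Kdr, Lmo2, S1pr1 and Tek.

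Receptors for vascular endothelial growth factor showed small differences. Kdr, the main signalling receptor, stood at 32.0, 28.0 and 27.4 FPKM in FF and at 24.0, 27.0 and 26.2 FPKM in cKO libraries. The groups did not overlap but lay close, with a log2 difference of -0.17 (95% interval -0.46 to 0.12, limma adjusted p = 0.514). Flt1, the decoy receptor, also did not overlap, with 8.02 to 8.80 FPKM in FF and 6.98 to 7.72 FPKM in cKO. Flt4, the receptor of lymphatic growth, was at 4.30, 3.86 and 6.04 FPKM in FF and 3.87, 4.73 and 4.14 FPKM in cKO. Neither gene passed with or without FF replicate 3.

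The angiopoietin receptor Tek, also called Tie2, was at 32.2, 28.8 and 31.6 FPKM in FF and at 26.3, 27.8 and 27.4 FPKM in cKO libraries. Its groups did not overlap, and its log2 difference of -0.18 (95% interval -0.44 to 0.09, limma adjusted p = 0.462) did not pass. Tie1, its partner receptor, ran the other way without FF replicate 3, at 31.7 and 31.8 FPKM in FF replicates 1 and 2 against 33.0 to 40.7 FPKM in cKO, with a log2 difference of 0.24 (limma adjusted p = 0.192), against 0.06 with 6 libraries. Ptprb, the phosphatase that restrains Tek, had a log2 difference of 0.08 with 6 libraries and -0.08 without FF replicate 3.

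Receptors of other ligands split. S1pr1 (ENSMUSG00000045092, chromosome 3, 115504082 to 115508721, minus strand), the receptor of sphingosine 1-phosphate that stabilises vessels, was at 78.4, 71.9 and 89.1 FPKM in FF and at 45.7, 57.0 and 51.7 FPKM in cKO libraries. The groups lay apart, at means of 79.8 ± 8.68 and 51.5 ± 5.64 FPKM (SD, n = 3 each). The log2 difference was -0.62 (SE 0.14, limma adjusted p = 0.103), and the gene fell without FF replicate 3, at -0.54 (SE 0.12, limma adjusted p = 0.0335).

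Eng (ENSMUSG00000026814, chromosome 2, 32536607 to 32572681, plus strand) encodes endoglin, a co-receptor of bone morphogenetic proteins. It was at 45.5, 47.3 and 107 FPKM in FF and at 58.4, 69.1 and 67.6 FPKM in cKO libraries. FF replicate 3 was the highest of all, and the cKO libraries lay between it and the other FF libraries. The log2 difference was 0.08 (95% interval -0.71 to 0.86) with 6 libraries. Without FF replicate 3 the gene rose, at 0.48 (SE 0.11, limma adjusted p = 0.036), or 40.2% above the mean of FF replicates 1 and 2. Eng overlaps Fpgs on the other strand, and no overlapping gene had a mean above 3.88 FPKM.

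Calcrl and Ramp2 together form the adrenomedullin receptor of vessels, and FF replicate 3 moved them in opposite directions. Calcrl was at 11.1, 8.25 and 1.58 FPKM in FF and at 10.3, 7.68 and 8.11 FPKM in cKO libraries, so that FF replicate 3 was the lowest by far. Ramp2 was at 15.6, 13.5 and 23.6 FPKM in FF and at 16.5, 19.4 and 17.8 FPKM in cKO libraries, with FF replicate 3 the highest. Neither passed in either comparison.

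Notch receptors, ephrin genes and the arterial kinase gene Bmx gave 0 of 5 members past the threshold in either comparison. Of all genes, 0.166% passed with 6 libraries and 13.6% without FF replicate 3, so 0 of 5 is no result about these members. Notch1, the main Notch receptor of endothelium and also a receptor of developing T cells, was at 3.83, 4.19 and 8.53 FPKM in FF and 3.87, 4.97 and 5.07 FPKM in cKO libraries. FF replicate 3 was the highest, and it was the library with the thymocyte transcripts. Their part in the Notch1 value was not tested. The log2 difference of Notch1 was -0.15 with 6 libraries and 0.16 without FF replicate 3 (limma adjusted p = 0.397). Notch4, the endothelial Notch receptor, had -0.13 and -0.05, the arterial ligand Efnb2 -0.11 and -0.18, and its venous receptor Ephb4 -0.29 and -0.05. Bmx was at 1.23 FPKM in FF replicate 3 and at 2.44 to 3.10 FPKM in the other libraries.

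Of 7 transcription factors 1 fell and 1 rose without FF replicate 3, where 13.6% of all genes passed. With 6 libraries 0 passed, where 0.166% of all genes did. Lmo2 (ENSMUSG00000032698, chromosome 2, 103788331 to 103812223, plus strand), an adaptor of blood and endothelial transcription complexes, was at 14.1, 13.3 and 12.0 FPKM in FF and at 7.01, 10.1 and 8.91 FPKM in cKO libraries. The groups did not overlap, the log2 difference was -0.56 (limma adjusted p = 0.15), and the gene fell without FF replicate 3, at -0.61 (SE 0.15, limma adjusted p = 0.0395). Lmo2 is also made by blood cells. The 9 erythroid markers summed to 1002, 753 and 1554 FPKM in FF and to 1096, 1059 and 892 FPKM in cKO libraries, overlapping between groups. Without FF replicate 3, 5 of the 9 erythroid markers were tested. Of these, 2 passed as higher in cKO hearts and 0 as lower, where 13.6% of all genes passed. These few markers give no result about blood cells. The part of blood cells in the Lmo2 value was not tested. Tal1, the binding partner of Lmo2, was at 2.05 to 2.50 FPKM in FF and 1.85 to 2.91 FPKM in cKO.

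Sox18, Sox7 and Sox17 are the SOX factors that specify arterial and lymphatic vessels. Sox18 (ENSMUSG00000046470, chromosome 2, 181311629 to 181313433, minus strand) was at 15.7, 13.9 and 29.4 FPKM in FF and at 19.9, 22.8 and 22.5 FPKM in cKO libraries. FF replicate 3 lay above all cKO libraries and the other FF libraries below them. With 6 libraries its log2 difference was 0.21 (limma adjusted p = 0.734). Without FF replicate 3, Sox18 rose by 46.9% (log2 difference 0.53, SE 0.11, limma adjusted p = 0.0273). Sox7 had the same pattern, at 10.5, 9.04 and 19.5 FPKM in FF and 11.3, 13.7 and 14.96 FPKM in cKO, but did not pass (limma adjusted p = 0.0869). Sox17 was at 2.99 to 3.21 FPKM in FF and 3.29 to 3.64 FPKM in cKO. The ETS factors Erg and Fli1 had log2 differences of -0.29 and -0.23 without FF replicate 3, and of -0.08 and -0.19 with it, and did not pass.

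Among genes of capillary function, Gpihbp1 fell and Car4 and Plvap rose without FF replicate 3. Gpihbp1 (ENSMUSG00000022579, chromosome 15, 75468477 to 75471330, plus strand) anchors lipoprotein lipase to the capillary wall. It was at 28.8, 29.5 and 31.7 FPKM in FF and at 18.5, 19.4 and 14.4 FPKM in cKO libraries, with no overlap and with FF replicate 3 close to the other FF libraries. The means were 29.99 ± 1.496 and 17.4 ± 2.67 FPKM (SD, n = 3 each). The log2 difference was -0.76 (SE 0.14, limma adjusted p = 0.0748) with 6 libraries and -0.72 (SE 0.14, limma adjusted p = 0.0239) without FF replicate 3.

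Car4 (ENSMUSG00000000805, chromosome 11, 84848612 to 84856870, plus strand), the carbonic anhydrase of capillary surfaces, was at 6.32, 6.74 and 11.4 FPKM in FF and at 10.04, 11.8 and 9.65 FPKM in cKO libraries. FF replicate 3 fell inside the cKO range. The log2 difference was 0.37 (limma adjusted p = 0.446) with 6 libraries, and without FF replicate 3 the gene rose by 60.7% over the mean of the other FF libraries, at 0.61 (SE 0.11, limma adjusted p = 0.0213). Plvap (ENSMUSG00000034845, chromosome 8, 71950409 to 71964396, minus strand), the protein of the diaphragms of fenestrae and caveolae, was at 15.2, 11.6 and 29.9 FPKM in FF and 19.9, 19.3 and 23.5 FPKM in cKO libraries. With 6 libraries its log2 difference was 0.24 (limma adjusted p = 0.741). It rose without FF replicate 3, at 0.61 (SE 0.14, limma adjusted p = 0.0376). It overlaps Gtpbp3 on the other strand, whose mean was 3.49 FPKM.

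The water channel gene Aqp1 did not overlap between groups, at 50.03, 54.3 and 58.1 FPKM in FF and 39.4, 46.4 and 38.5 FPKM in cKO libraries, but did not pass (limma adjusted p = 0.207, and 0.0945 without FF replicate 3). The nitric oxide synthase gene Nos3 had log2 differences of -0.11 and 0.06. Vwf, the clotting factor stored in endothelial granules, was at 3.11, 2.81 and 4.21 FPKM in FF and 3.62, 4.35 and 3.85 FPKM in cKO libraries, and did not pass. Platelets also carry Vwf, and 9 platelet and megakaryocyte markers summed to 9.04 to 17.8 FPKM over the libraries, highest in FF replicate 3. Their part in the Vwf value was not tested.

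Npr3, the clearance receptor of natriuretic peptides and the endocardial member, had the highest log2 difference of the 40 members with 6 libraries. It was at 6.49, 6.62 and 4.24 FPKM in FF and at 10.8, 7.39 and 12.98 FPKM in cKO libraries. The groups did not overlap, but cKO replicate 2 lay close to FF. The log2 difference of 0.74 (95% interval 0.17 to 1.31, limma adjusted p = 0.189) did not pass, nor did the 0.56 without FF replicate 3 (limma adjusted p = 0.104).

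**Figure D3:**
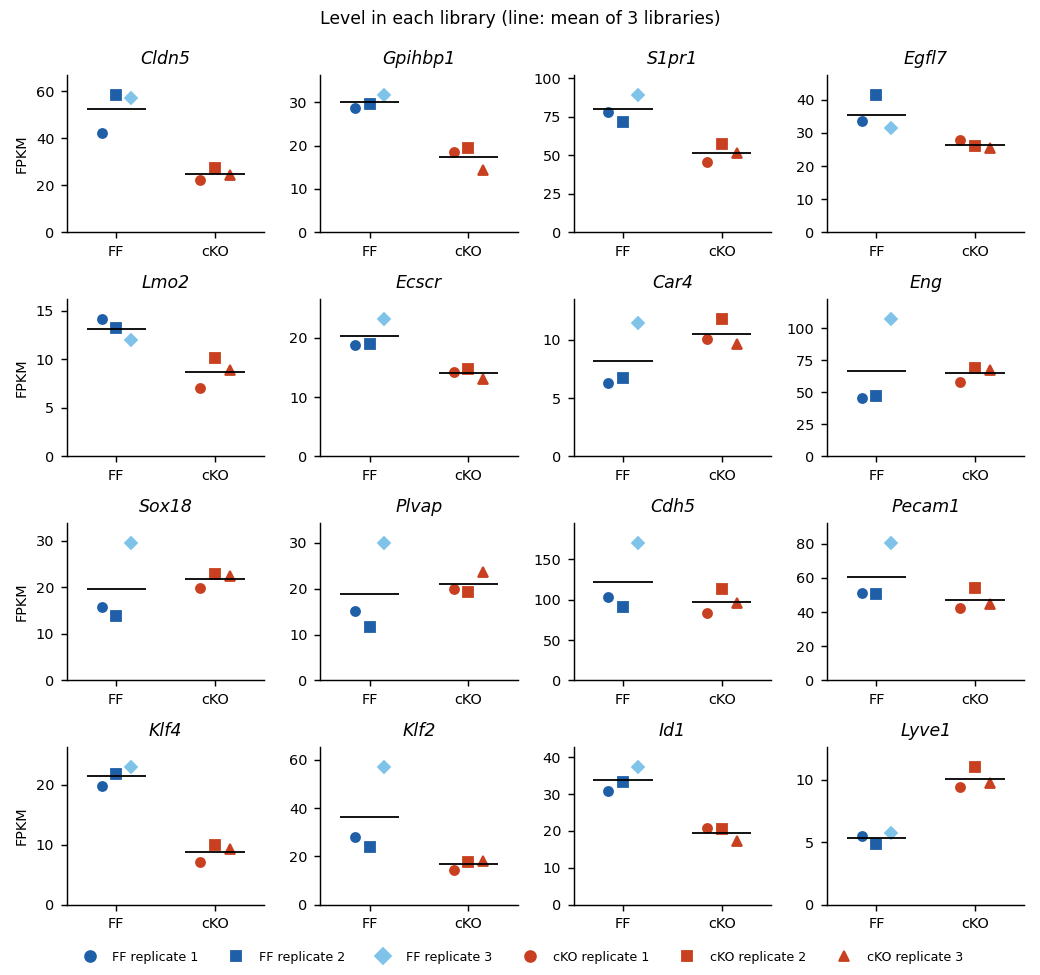
Level in FPKM in each library for the 10 members past the threshold without FF replicate 3, for Cdh5 and Pecam1, and for 4 genes of the same pathways that are not members. Lines are means of 3 libraries. Cldn5, Gpihbp1, S1pr1, Egfl7, Lmo2 and Ecscr are lower in each cKO library than in each FF library, whereas FF replicate 3 lies within or above the cKO range for Car4, Eng, Sox18 and Plvap.

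The deviation of FF replicate 3 from the other FF libraries was higher at GC-rich genes. It was the highest of the 6 libraries at 21 of the 40 members and the lowest at 6, or 52.5% and 15%, against 34.6% and 33.3% of all genes tested. Across the 40 members, its log2 deviation from the mean of FF replicates 1 and 2 had a Spearman's rho of 0.564 with the GC content of the longest transcript in GENCODE M21, and across 12473 genes the rho was 0.639. Genes share the same libraries, so these are descriptions. Calcrl, the member with the lowest GC content at 37.8%, had 0.16 times the mean of the other FF libraries in it, and Eng, at 57.4%, had 2.31 times. Single genes went against this order: Emcn, at 40.7% GC, had 1.53 times, and Egfl7, at 57.1% GC, 0.84 times. The other libraries differed in this respect too. Across genes, the rho of each library's deviation from the mean of the 6 libraries with GC content was -0.478, -0.312 and 0.610 in FF. It was -0.378, -0.061 and -0.049 in cKO libraries. The part of base composition in the differences between groups was not tested. The rho of the cKO minus FF differences with GC content was -0.095 across members and -0.230 across all genes with 6 libraries, and 0.227 and 0.201 with 5 libraries.

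**Figure D4:**
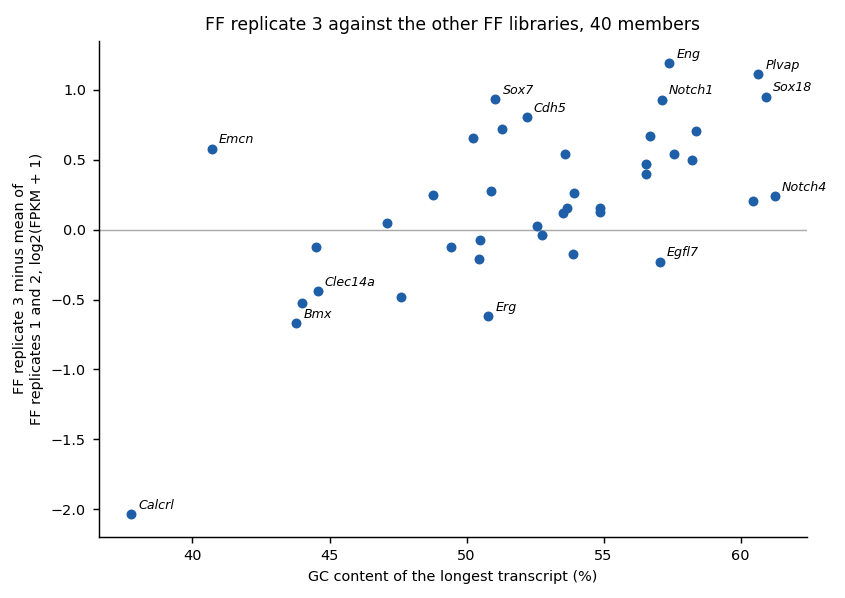
Deviation of FF replicate 3 from the mean of FF replicates 1 and 2 on the log2(FPKM + 1) scale against the GC content of each gene's longest transcript, for the 40 members. Points rise from Calcrl at the lower left to Eng, Plvap and Sox18 at the upper right, with single genes off this line, such as Emcn above it and Erg, Egfl7 and Notch4 below it.

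Relative to Cdh5, 3 of the 10 genes, Cldn5, Car4 and Sox18, did not overlap between groups. The share of all genes without overlap relative to Cdh5 was not computed, and the 10 genes were picked by their calls in these same libraries. The count is therefore a description and no result about the members. As a share of Cdh5, Car4 was at 6.14%, 7.39% and 6.73% in FF and at 12.1%, 10.4% and 10.1% in cKO hearts, and Sox18 at 15.3%, 15.2% and 17.3% in FF and 23.9%, 20.1% and 23.5% in cKO hearts. On this scale FF replicate 3 lay nearer to the other FF libraries than to the cKO libraries for either gene, and the groups did not overlap. Tie1 did not overlap on it either, at 27.5% to 34.8% in FF and 35.9% to 41.4% in cKO hearts. Gpihbp1, S1pr1, Ecscr, Egfl7, Lmo2, Eng and Plvap overlapped on it, and Cdh5 itself was high in FF replicate 3. The GC content was 52.2% for Cdh5, 60.5% for Cldn5, 60.9% for Sox18 and 51.3% for Car4. The part of base composition in these ratios was not tested. When each library was rescaled to equal levels of the 8 pan-endothelial genes, an alternative chosen after the data were seen, Cldn5 passed also with all 6 libraries. With that rescaling and 5 libraries, 8 members were called higher and 2, Cldn5 (-0.77) and Gpihbp1 (-0.50), lower, in place of 4 and 6. The rescaling raised genes in general: their median then stood at 0.18, that of the members at 0.15, and of all genes 2140 were called higher and 272 lower. The scaling genes include Cldn5, Egfl7 and Tie1, so the gain and loss of calls under it is no result about the members.

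Sequences before the start sites, from a RefSeq promoter table (GRCm38.p6), are shown for 4 of the genes past the threshold without FF replicate 3. Each is the 250 bases before the start, 5′ to 3′ on the strand of the gene, and capitals mark the ETS motifs CAGGAAG and CCGGAAG, which share their last letters, on either strand. Cldn5 and Egfl7 were lower in cKO hearts, and Eng and Car4 higher.
Cldn5, chr16:18776597-18776846, plus strand: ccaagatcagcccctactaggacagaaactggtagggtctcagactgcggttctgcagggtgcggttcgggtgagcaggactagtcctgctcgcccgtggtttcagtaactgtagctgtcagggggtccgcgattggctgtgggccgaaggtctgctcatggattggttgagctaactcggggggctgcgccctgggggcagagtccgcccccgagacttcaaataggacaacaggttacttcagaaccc
Egfl7, chr2:26580833-26581082, plus strand: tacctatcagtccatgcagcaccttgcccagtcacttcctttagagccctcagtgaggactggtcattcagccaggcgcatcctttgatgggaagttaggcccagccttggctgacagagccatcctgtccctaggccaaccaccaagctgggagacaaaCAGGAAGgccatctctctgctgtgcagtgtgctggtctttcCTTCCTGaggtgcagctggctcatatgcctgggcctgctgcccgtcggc
Eng, chr2:32646345-32646594, plus strand: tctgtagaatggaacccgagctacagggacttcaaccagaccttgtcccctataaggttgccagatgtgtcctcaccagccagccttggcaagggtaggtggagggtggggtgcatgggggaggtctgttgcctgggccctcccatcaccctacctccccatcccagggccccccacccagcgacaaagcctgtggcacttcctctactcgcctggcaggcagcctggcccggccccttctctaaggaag
Car4, chr11:84957504-84957753, plus strand: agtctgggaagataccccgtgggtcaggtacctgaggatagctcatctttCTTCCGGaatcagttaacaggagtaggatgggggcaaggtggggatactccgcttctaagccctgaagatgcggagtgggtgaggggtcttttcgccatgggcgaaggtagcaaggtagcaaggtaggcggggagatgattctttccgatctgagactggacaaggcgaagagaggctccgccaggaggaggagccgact

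In these windows Egfl7 held 2 matches, Car4 1, and Cldn5 and Eng 0. Egfl7 has 3 start sites in the table, and the one with the most matches is shown. Its other starts held 1 and 0 matches, and Cldn5, Eng and Car4 have 1 start each. The windows were thus not chosen alike, and no comparison of lower with higher genes is drawn from them. The table held 22 of the 40 members with 27 start sites, of which 8, or 29.6%, had a match to either motif, against 17.0% of all 32851 promoters. The SOX motif AACAAT, searched on both strands, was in 4 of 27, or 14.8%, against 9.42% of all. A match is a run of letters and not a measured binding site.

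Genes of the same pathways that are not members also moved without FF replicate 3. Of 104 tested, 7 rose and 12 fell, or 18.3% against 13.6% of all genes, and with 6 libraries 0 of 103 passed. Among regulators that respond to flow or set endothelial fate, 5 of 15 fell and 0 rose. Klf4, a flow-induced factor that other cells also make, was at 19.7, 21.8 and 22.9 FPKM in FF and at 7.01, 10.01 and 9.29 FPKM in cKO libraries. The groups lay far apart, with a log2 difference of -1.21 (limma adjusted p = 0.0562) and of -1.17 (limma adjusted p = 0.0122) without FF replicate 3. Bcl6b, an endothelial repressor, had -0.48 (limma adjusted p = 0.0231) without that library and -0.47 with it. The homeobox genes Meox1 and Meox2, the second chosen after its values were seen, had -0.52 and -0.42 without it and -0.72 and -0.27 with it. Klf2, the best known flow-induced factor, was not among the 3 smallest p of its list but fell too (chosen after its values were seen), at 28.2, 24.0 and 56.9 FPKM in FF against 14.4, 17.8 and 17.9 FPKM in cKO libraries.

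Calls among downstream and ligand genes of the receptors all came without FF replicate 3. The share per list ran from 0% for angiopoietins to 18.2% for bone morphogenetic protein signalling, against 13.6% of all genes. Among ligands and co-receptors of vascular endothelial growth factor, 1 of 7 fell, the co-receptor Nrp2, from 9.43, 9.94 and 10.6 FPKM to 6.20, 6.68 and 6.65 FPKM. Among Notch ligands and targets, 1 of 11 fell, the target Hes1, at 12.7, 12.8 and 14.2 FPKM in FF and 8.30, 9.19 and 8.03 FPKM in cKO libraries. Neither gene overlapped between groups. Among genes of bone morphogenetic protein signalling, 1 of 11 fell and 1 rose: the target Id1 stood at 30.7, 33.4 and 37.3 FPKM in FF and 20.8, 20.5 and 17.2 FPKM in cKO libraries, and the inhibitor Smad6 had a log2 difference of 0.50 without FF replicate 3 and 0.30 with it. The 4 angiopoietin genes tested gave 0 calls. In the adrenomedullin and endothelin list 1 of 7 rose, the endothelin-processing enzyme Ece1, at 0.55 without FF replicate 3 and 0.23 with it. FF replicate 3 lay above all cKO libraries for Smad6 (8.62 against 7.65 to 8.24 FPKM) and for Ece1 (42.8 against 27.3 to 35.6 FPKM).

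Of 9 arterial genes 2 rose without FF replicate 3, where 13.6% of all genes passed. These were the connexin gene Gja4 (log2 difference 0.62, limma adjusted p = 0.0131) and the chemokine gene Cxcl12 (0.37, limma adjusted p = 0.047). With 6 libraries these differences were 0.32 and 0.28, and FF replicate 3, at 15.8 FPKM, lay above the cKO libraries, at 12.6 to 13.3 FPKM, for Gja4. Of 5 lymphatic genes tested 2 rose in the same comparison. Lyve1, the hyaluronan receptor of lymphatic cells and also of tissue macrophages, was at 5.46, 4.86 and 5.73 FPKM in FF and at 9.42, 11.0 and 9.71 FPKM in cKO libraries. The groups lay far apart, with a log2 difference of 0.80 (limma adjusted p = 0.0616) with 6 libraries and 0.84 (limma adjusted p = 0.0117) without FF replicate 3. Prox1, the lymphatic factor that heart muscle cells also express, was at 10.1, 7.59 and 5.86 FPKM in FF and at 15.8, 16.0 and 16.4 FPKM in cKO libraries. Pdpn, the podoplanin gene of lymphatic and other cells, went the other way and did not pass (chosen after its values were seen), at 5.45, 6.504 and 13.6 FPKM in FF and 3.71, 4.15 and 4.79 FPKM in cKO libraries, with log2 differences of -0.78 and, without FF replicate 3, -0.42 (limma adjusted p = 0.0687). The 9 macrophage markers summed to 42.5, 55.2 and 93.6 FPKM in FF and to 32.1, 41.7 and 37.8 FPKM in cKO libraries. Each cKO sum was lower than each FF sum, the closest at 41.7 against 42.5 FPKM. Of 7 macrophage markers tested 0 passed in either comparison. The part of macrophages in the Lyve1 value was not tested. Of 5 venous genes tested 0 passed, and of 5 other endocardial genes 1 rose, Bmp4 (0.64, limma adjusted p = 0.0454, against 0.43 with 6 libraries).

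In the same comparison, genes of lipid handling in capillaries and other endothelial surface genes gave 2 lower calls each and 0 higher. With 10 and 17 tested, this was 20% and 11.8%, against 13.6% of all genes. The genes called were Cav2 and Fabp4, and Gimap6 and Adgrl4. Gimap6, a small GTPase gene of endothelium and lymphocytes, was at 29.6, 31.2 and 23.7 FPKM in FF and 17.4, 19.3 and 15.4 FPKM in cKO libraries, with no overlap and a log2 difference of -0.78 (limma adjusted p = 0.0132) without FF replicate 3 and -0.66 with it.

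Markers of the other cells of the heart are given beside these results. Cardiomyocyte markers summed to 11636 to 13118 FPKM in FF and 12783 to 15101 FPKM in cKO libraries, and mural cell markers to 466 to 544 and 499 to 611 FPKM. Fibroblast markers summed to 538, 677 and 926 FPKM in FF and 410, 544 and 547 FPKM in cKO libraries. Epicardial markers summed to 43.1 to 88.1 FPKM in FF and 38.0 to 48.3 FPKM in cKO libraries, and lung epithelial markers to 1.86 to 2.20 and 1.38 to 4.13 FPKM. FF replicate 3 had the highest sum for the thymocyte, erythroid, platelet, macrophage, fibroblast and epicardial lists. The part of these cells in the members' differences was not tested. Of the listed markers only Gp1bb, of platelets, was at 0 in all 6 libraries.

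**Figure D5:**
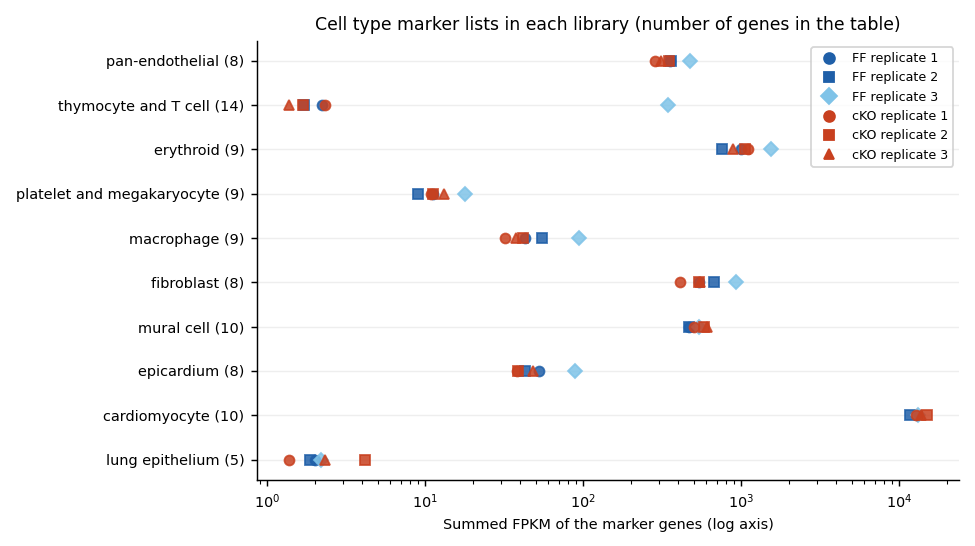
Summed FPKM of marker genes of each cell type in each library, on a log axis, with the number of genes in the table in brackets. The pan-endothelial sums lie between 286 and 477 FPKM, and FF replicate 3 stands far to the right of the other libraries for thymocyte and T cell markers.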

How the data were processed

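The authors deposited FPKM values per gene for 6 libraries, per the file headers. Per the submitters' processing notes, the tools were FastQC, TopHat2 2.0.13, Subread, featureCounts and edgeR, without roles, and the builds GRCh38, mm10 and GRCm39. No annotation release or strand setting is given in the sources used here, and overlapping genes may share reads. Of 52073 identifiers shared with GENCODE M21 (GRCm38), 1472 had the same start and end, and 0 of the 40 members did; coordinates are printed as deposited, which of the mouse builds named leaves GRCm39. Per the labels' protocols, RNA was isolated with a miRNeasy kit, and the Ovation Ultralow V2 kit gave the libraries.

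FPKM times gene length was a whole multiple of 1 step in each library (100% of values under 200 reads within 0.1 of a whole number), which gave the reads; members had 73 to 13654 reads per library. The test was limma's moderated linear model (version 3.58.1, under R 4.3.3) of log2(FPKM + 1) on group alone, with a trended prior and Benjamini-Hochberg adjustment at 0.05, over genes with a mean of at least 1 FPKM over the libraries fitted. The pseudocount understates changes of low genes. The same fit was run without FF replicate 3.

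The members, the 12 related lists and the 10 marker lists were chosen with earlier results of these data known. All 40 members are accounted for. By rule, values in every library were given for members past the threshold in either fit and 9 fixed members, and up to 3 called genes per related list were named; values of other members were added for their role or after they were seen. Of 236 listed symbols 235 were in the table. Alternatives were other pseudocounts, filters, scalings, variance priors, library weights, a replicate block, each library left out, and, added after the data were seen, a rescaling to 8 pan-endothelial genes.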

Additional observations from a re-analysis of the deposited data

How the results depend on the processing

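With 6 libraries, the count of 0 members past the threshold held under the other pseudocounts, filters and scalings named in the processing, the robust prior and the replicate block. It was 17 with library weights, where 4300 of 12678 genes passed, and 1 (Cldn5) after rescaling to 8 pan-endothelial genes, where 457 of 12696 did. On leaving out each library it was 0 to 10, 10 being without FF replicate 3, where 1716 of 12631 genes passed. On leaving out any other library, 0 of all genes passed. Without FF replicate 3, the count of 10 became 0 with no filter on low values, where 58 of 29067 genes passed. On leaving out a further cKO library it was at most 11, with 6 without cKO replicate 2 and 3 without cKO replicate 3. Leaving out FF replicate 1 or 2 as well leaves a lone FF library, so no count is given for it. Rescaling to 8 pan-endothelial genes kept 10, split 8 higher and 2 lower in place of 4 and 6; the members' median became 0.15, or 0.16 with 6 libraries. The median over members ran from -0.18 to -0.06 (6 libraries) and from -0.12 to -0.04 (without FF replicate 3) on leaving out a library.

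Among all genes, the 21 calls with 6 libraries became 11 and 14 with pseudocounts of 0.1 and 0.5, 0 with no filter, 53 at a mean of at least 5 FPKM, 59 with quantile normalization, 34 when scaled outside mitochondrial genome and haemoglobin genes, 13 with the robust prior, 4300 with library weights, 2 with the replicate block and 457 after the pan-endothelial rescaling. The 1716 calls without FF replicate 3 became 58 with no filter and 681 with the replicate block.

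Deviations of same-numbered samples from their group means correlated at 0.384, -0.238 and 0.239, and not every sample correlated best with its own number. Such deviations cancel out within each group, and FF replicate 3 stood apart, so these values can neither show nor exclude a pairing. The replicate block took the count without FF replicate 3 to 2 (Car4 and Cldn5). Over 16 alternatives without FF replicate 3, Cldn5 and Car4 passed in 13 each and Gpihbp1 in 12, Eng, Lmo2, Plvap, S1pr1 and Sox18 in 10 each, Ecscr in 9 and Egfl7 in 8. Cldn5 ran from -1.22 to -0.76 with adjusted p from 0.00565 to 0.073 in limma.

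Some signs turned; those under the pan-endothelial rescaling stand beside a shift of all genes, whose median it moved to 0.26 with 6 libraries and 0.18 with 5. With 6 libraries, library weights gave 0.061 for Cdh5 and 0.15 for Notch1, and rescaling to 8 pan-endothelial genes 0.041 for Cdh5, 0.13 for Kdr, 0.13 for Tek and 0.12 for Notch1. Leaving out a library gave -0.13 to 0.48 for Eng, -0.036 to 0.61 for Plvap and -0.33 to 0.16 for Notch1. Without FF replicate 3, Cdh5, at -0.0033, had 0.0031 with median-ratio scaling, 0.0031 with the replicate block, 0.014 with library weights, 0.10 with quantile normalization, 0.22 after the pan-endothelial rescaling and -0.12 to 0.10 on leaving out a library. Pecam1 had 0.017 with quantile normalization and 0.11 after that rescaling, Kdr 0.0070 and Tek 0.061 after it. The cause was not tested.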

Other observations

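Caveolar and lipid-binding genes of capillaries, which are not among the 40, showed how far FF replicate 3 lay from the other libraries. Cav2, a caveolin gene, was at 34.3 and 28.5 FPKM in FF replicates 1 and 2, at 4.53 FPKM in FF replicate 3 and at 19.3, 17.0 and 17.0 FPKM in cKO libraries. Fabp4, the fatty acid binding protein of capillary endothelium and fat cells, was at 130, 124 and 49.8 FPKM in FF and 98.9, 80.6 and 76.0 FPKM in cKO libraries. Both passed as lower in cKO hearts without FF replicate 3 (limma adjusted p = 0.0133 for Cav2 and 0.0365 for Fabp4), and with it their log2 differences were 0.07 and -0.14.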
